A study of Mus musculus with 2 samples.

Results

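Peroxiredoxins, superoxide dismutases, catalase and glutathione peroxidase 1 form the core of the enzyme system that clears superoxide and hydrogen peroxide. Of the 10 genes considered (Prdx1 to Prdx6, Sod1, Sod2, Cat and Gpx1), 7 were measured by 19 of the 45037 probe sets of the array, each annotated with 1 gene symbol and that symbol belonging to 1 of the 10. The 7 are Prdx2, Prdx3, Prdx4, Sod1, Sod2, Cat and Gpx1. All 5 probe sets annotated to Prdx1 also carry Gm21399, a pseudogene, and by the rule they were left out. No probe set was matched to Prdx5 or Prdx6, which were not analysed here.

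The cells were wild-type C57BL6J mouse bone marrow cells described as LSK Flt3-, a fraction rich in haematopoietic stem cells that lacks lineage markers and the Flt3 receptor and carries Sca-1 and high c-Kit. Both groups were transduced: 1 array was labelled GFP, the control, and 1 was labelled Satb1, whose protein is a chromatin organiser of the nucleus with a preference for AT-rich DNA. With 1 array per group there was no replicate, so every difference stands without a standard error or p-value, and the sources used here do not state the number of animals or cultures per array. Values are MAS5 intensities, which summarise the probes of a probe set on a linear scale. A floor of 61.7, the median intensity over the whole table, separated measured intensities from low ones.

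Superoxide dismutases turn superoxide into hydrogen peroxide, with Sod1 acting mainly in the cytosol and Sod2 in the mitochondrial matrix. Catalase breaks down hydrogen peroxide in peroxisomes, Gpx1 reduces it with glutathione, and peroxiredoxins reduce it through a reactive cysteine that thioredoxin then restores. Blood stem cells are known to be sensitive to reactive oxygen species, and loss of such defences is known to disturb their quiescence.

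The sequence upstream of the start of each measured gene was read for features that the choice of genes did not use, because the transduced factor binds AT-rich DNA. The promoter table, from RefSeq on GRCm38.p6, held all 7 genes. In the 250 bases before the start, the share of A and T ran from 30.8% in Prdx2 to 58% in Gpx1, beside a median of 47.6% over 32851 promoters, and 6 of the 7 lay below that median. A GC box (GGGCGG, either strand) was found in 5 of the 7, and in 32.7% of all promoters. The core of the antioxidant response element (TGACNNNGC, either strand) was found in Sod1 alone among the 7, and in 10.2% of all promoters. Shown are Gpx1 for its high AT share, Sod1 for both motifs and Prdx4 for its GC boxes and for the difference described below. Capitals mark GC boxes and, in Sod1, also the antioxidant response element core GCGTGGTCA, which reads as the motif on the opposite strand. GC boxes in Sod1 overlap each other in both runs of capitals that precede it. A match of letters is a description and not a bound site, and no factor binding was measured.
Gpx1, chr9:108338830-108339079, plus strand: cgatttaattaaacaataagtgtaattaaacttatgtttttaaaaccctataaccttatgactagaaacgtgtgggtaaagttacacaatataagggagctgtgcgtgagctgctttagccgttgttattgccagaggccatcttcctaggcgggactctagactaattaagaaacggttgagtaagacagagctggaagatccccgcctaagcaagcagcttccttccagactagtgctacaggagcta
Sod1, chr16:90220512-90220761, plus strand: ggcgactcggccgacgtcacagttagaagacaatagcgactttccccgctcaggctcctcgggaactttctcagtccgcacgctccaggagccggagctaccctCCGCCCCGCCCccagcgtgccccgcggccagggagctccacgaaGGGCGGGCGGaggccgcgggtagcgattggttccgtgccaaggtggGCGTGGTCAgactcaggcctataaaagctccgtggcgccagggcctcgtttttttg
Prdx4, chrX:155338461-155338710, minus strand: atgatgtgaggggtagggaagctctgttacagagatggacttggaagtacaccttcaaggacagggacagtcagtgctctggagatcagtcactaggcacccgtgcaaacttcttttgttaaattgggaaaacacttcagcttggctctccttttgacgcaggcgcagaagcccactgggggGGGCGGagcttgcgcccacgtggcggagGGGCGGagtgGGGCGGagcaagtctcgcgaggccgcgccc

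The labels and the cell type were checked first. Satb1 itself gave no higher signal on its own array: its brightest probe set read 1116 on GFP and 909 on Satb1. The sources used here do not state which part of the transcript was transduced, so all directions rest on the labels. Of 5 measured genes used to sort or subdivide such cells, Kit (3293 and 3388), Cd34 (8563 and 8197) and Cd48 (3225 and 2908) were bright on both. Flt3 RNA was present (1390 and 1334), although the cells are described as Flt3-. Slamf1 read 95.7 and 233 by its brightest probe set, 2.43-fold higher on Satb1, and its other probe sets lay below the floor on both. Of 5 measured lineage antigen genes, Cd3e, Cd4 and Ms4a1 lay below the floor, and Itgam (127 and 121) and Cd8a (88.9 and 148) lay above it. The Cd8a values came from a probe set of the _x_at kind, which may also pick up other genes. All other Cd8a probe sets lay below the floor on both arrays. The trimmed means of the arrays were 497 each, as scaling of both to 1 target would leave them, so this equality is no check. Log2 intensities correlated at 0.986 across the 21336 probe sets that exceeded the floor on both, which are not independent replicates.

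All 7 measured enzymes were expressed on both arrays, and none differed by 1.3-fold between them. Represented by their brightest probe sets, 6 of the 7 had a mean intensity above 2000 and Prdx4 had 1079. Of the 7, 0 were 2-fold apart, where 1.13% of the 11048 genes above the floor on at least 1 array were. Likewise 0 of the 7 were 1.3-fold apart, beside 14.7% of those genes and 3.93% of the 2570 genes with a mean intensity of at least 2000. A count of 0 among 7 genes is near these shares, and nothing is read from it about the enzymes as a group. The median log2 difference (Satb1 minus GFP) was -0.08 over the 7 enzymes, -0.02 over all genes above the floor and 0.03 over the bright genes. By deposited values 2 of the 7 were higher and 5 lower by some amount. On the same measure, the 11048 genes split into 4994 with a larger Satb1 value and 6051 with a smaller one. The split of the 2570 bright genes leaned the other way, at 1512 and 1058. After quantile normalization all 7 were lower, and after median centring 3 were higher and 4 lower, so the sign of the smaller differences depended on the scaling.

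**Figure D1:**
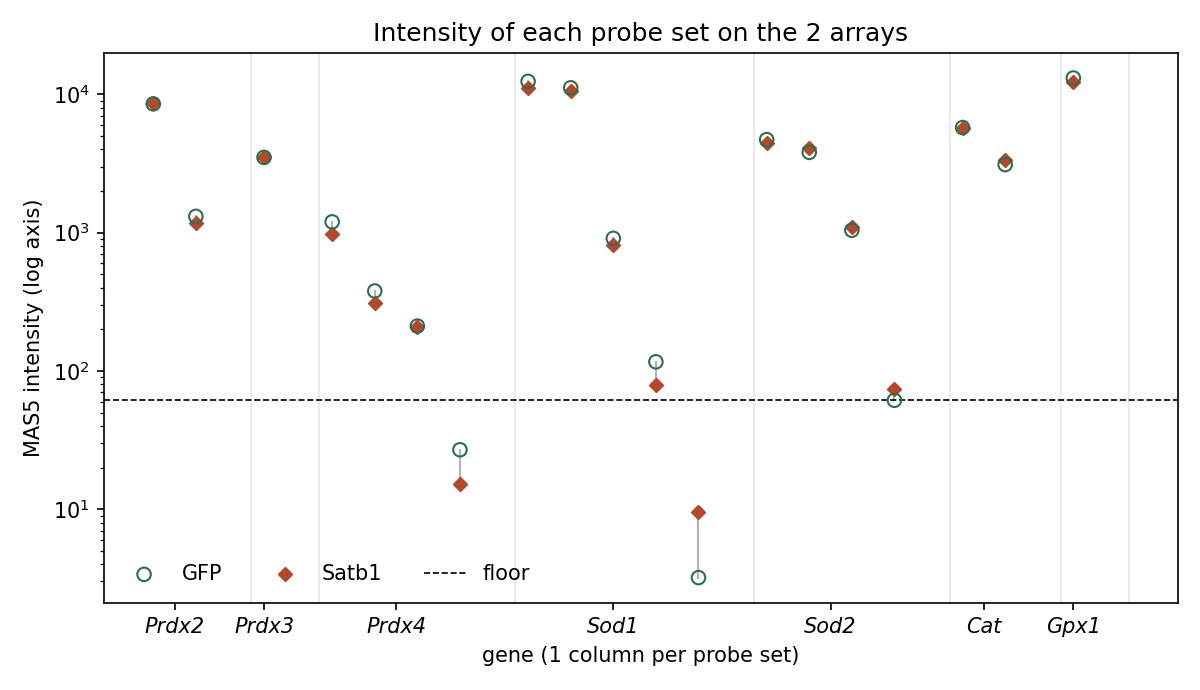
MAS5 intensity (log axis) of the 19 probe sets of the 7 measured genes, 1 column per probe set, on the array labelled GFP (open circles) and the array labelled Satb1 (diamonds). The dashed line is the floor of 61.7. The symbols nearly coincide for the bright probe sets and separate below the floor, and probe sets of 1 gene lie far apart.

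Brightness on the arrays followed the same order on both. The brightest probe set of Gpx1 read 13132 on GFP and 12298 on Satb1. Sod1 followed at 12411 and 11039, then Prdx2 at 8532 and 8695, and Cat at 5755 and 5678. Sod2 read 4705 and 4465, Prdx3 3501 and 3547, and Prdx4, the dimmest, 1196 and 973. Among all probe sets, Gpx1 lay at percentile 99.1 of the GFP array and Prdx4 at 86.3. This order ranks probe sets and not transcripts, because each probe set binds with its own affinity. The 4 Sod1 probe sets above the floor alone spanned a 122-fold range of mean intensity, and those of Prdx2 a 6.92-fold range. The gap between Gpx1 and Sod1 is smaller than such spans, and no replicate spread exists to judge any neighbours in the order.

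Among the typical 2-Cys peroxiredoxins, Prdx2 and Prdx3 were nearly level and Prdx4 was lower on the array labelled Satb1. Prdx2, a cytosolic enzyme that is very abundant in red cells, read 8532 on GFP and 8695 on Satb1 by its brightest probe set (1418506_a_at), a log2 difference of 0.03. The second Prdx2 probe set (1430979_a_at) went the other way, at 1311 and 1182, a difference of -0.15. Both names end in _a_at, the form given to probe sets that can match several transcripts of 1 gene. Prdx3, the mitochondrial member, had 1 probe set (1416292_at), at 3501 and 3547, a difference of 0.02.

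Prdx4, which resides in the endoplasmic reticulum, had the largest difference of the 7 genes. Its brightest probe set (1416167_at) read 1196 on GFP and 973 on Satb1, 1.23-fold lower, a log2 difference of -0.30. The next (1416166_a_at) gave nearly the same difference, -0.29, from 378 and 310. The third (1435731_x_at) was level, at 211 and 207 (-0.03), and turned to 0.10 after quantile normalization and to 0.03 after median centring. The fourth (1431269_at) was below the floor on both arrays, at 26.9 and 15.1. The difference can be set only against the scatter (SD) among different probe sets for 1 gene, which leaves out any error that a preparation puts on all of them. That within-gene SD was 0.36 for mean intensities under 200, 0.28 from 200 to 500, 0.19 from 500 to 2000 and 0.13 above 2000. The brightest Prdx4 probe set lay at -1.54 of these SDs and the next at -1.04. Averaged over its probe sets, Prdx4 differed by -0.15, less than Sod1 did on the same measure (-0.19).

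Both superoxide dismutases were within 1.3-fold by their bright probe sets, and Sod1 was the more uniform in sign. Sod1 read 12411 on GFP and 11039 on Satb1 by probe set 1459976_s_at, a log2 difference of -0.17 or -1.27 within-gene SDs. At 11151 and 10590, the other bright Sod1 probe set (1451124_at) differed by -0.07. A dimmer one (1435304_at) read 909 and 820, differing by -0.15. All of these were lower on the array labelled Satb1, under quantile normalization and median centring too. The dim probe set 1440222_at read 116 and 79.7, 1.46-fold lower, and 1447761_x_at was far below the floor, at 3.2 and 9.5.

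Sod2 went both ways. Its brightest probe set (1448610_a_at) read 4705 on GFP and 4465 on Satb1, a log2 difference of -0.08. The probe sets 1417193_at, at 3807 and 4089, and 1454976_at, at 1040 and 1106, were higher, by 0.10 and 0.09. The fourth probe set (1417194_at) read 61.3 and 74.0, with the GFP value below the floor. The mean over all 4 Sod2 probe sets, with that value floored, was 0.09, of opposite sign to the brightest. No sign can be given for Sod2 from these arrays.

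The enzymes that act on hydrogen peroxide without a peroxiredoxin cysteine were also close on the arrays. Cat read 5755 on GFP and 5678 on Satb1 by 1416429_a_at, a log2 difference of -0.02, and 3105 and 3331 by 1416430_at, a difference of 0.10. Gpx1, a selenoprotein, read 13132 and 12298 by its only probe set (1460671_at), 1.07-fold lower, a difference of -0.09. These values lay within 1 within-gene SD.

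Over the probe sets, 16 of the 19 were above the floor on both arrays. Of these, 5 were higher and 11 lower on the array labelled Satb1. The counts were 4 and 12 after quantile normalization and 7 and 9 after median centring. Probe sets of 1 gene are not independent, and 4 of the 16 belong to Sod1. The median log2 difference of the 16 was -0.08, beside -0.03 over the 21336 that exceeded the floor on both. Of the 16, 12 lay within 1 within-gene SD and 0 beyond 2. Past 1.3-fold there was 1 of 16, the dim Sod1 probe set 1440222_at, beside 19.7% of the 21336 that exceeded the floor on both. Among the 5 genes with at least 2 such probe sets, those of Sod1 and Prdx4 shared a sign in the deposited values, and those of Prdx2, Sod2 and Cat did not.

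**Figure D2:**
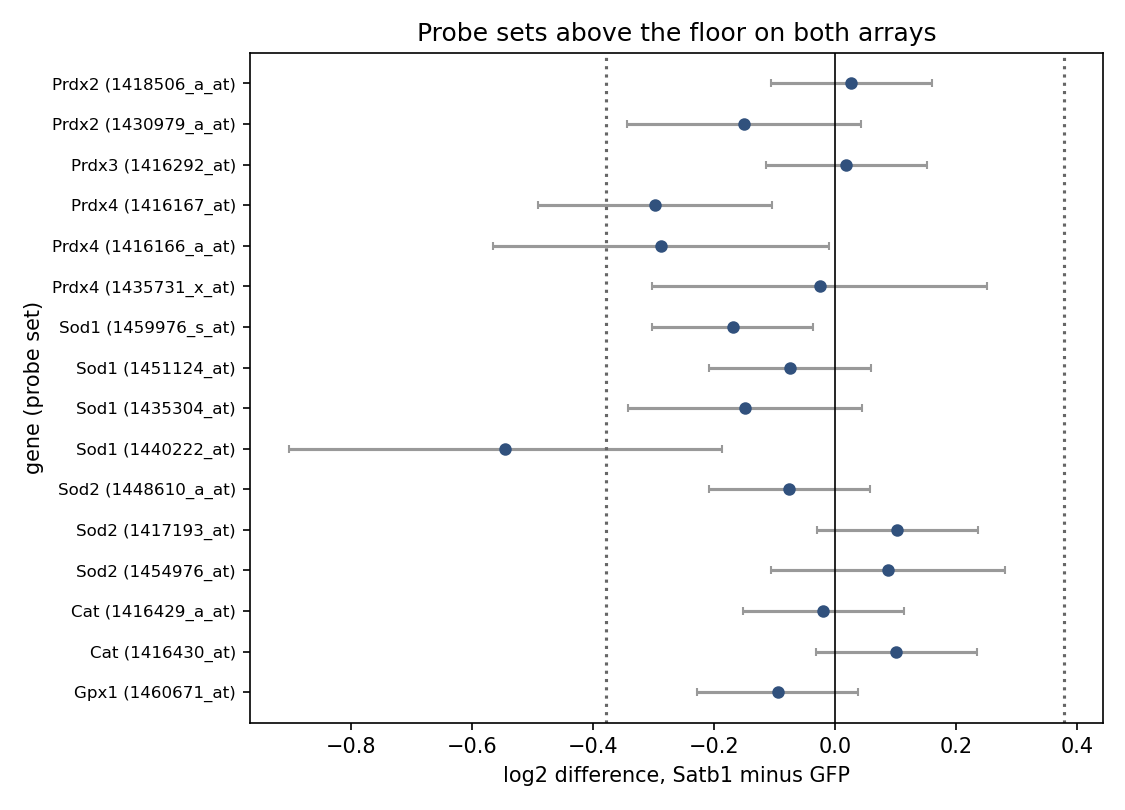
Log2 difference (Satb1 minus GFP) of the 16 probe sets with both intensities over the floor. Horizontal bars are the within-gene SD between probe sets of similar intensity (0.13 to 0.36), not a replicate error, and dotted lines mark 1.3-fold. The dim Sod1 probe set 1440222_at alone lies past a dotted line.

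The partners of these enzymes were then examined in 4 lists of 50 genes in all. Of these, 48 were measured, 45 exceeded the floor on 1 array or both, and 0 were 2-fold apart. The thioredoxin system, which restores oxidised peroxiredoxins, had 13 of 13 genes above the floor. At 1.3-fold, 1 was higher and 0 lower, and the median log2 difference was 0.07. Txn1, the cytosolic thioredoxin, was the brightest, at 21271 on GFP and 20234 on Satb1. Txnl1, a thioredoxin-like protein, read 8932 and 8854. The gene past 1.3-fold was the sestrin Sesn2, at 96.8 and 142, but its other probe set read 137 and 64.0, so its sign depends on the probe set.

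The glutathione list, which covers glutathione synthesis, recycling and NADPH supply, had 12 of 14 genes measured, all above the floor, with a median of 0.07. At 1.3-fold, 2 were higher and 1 lower. Gclm, the modifier subunit of the rate-limiting enzyme of glutathione synthesis, read 3254 on GFP and 4634 on Satb1, 1.42-fold higher. Its second probe set was also higher, at 706 and 856. Slc7a11, the cystine transporter, read 74.2 and 112 by 1 probe set and 81.8 and 55.6 by the other. Ggt5, a gamma-glutamyltransferase family gene, read 280 and 213 by a probe set of the _x_at kind, which may also pick up other genes, while another read 127 and 134. Pgd of the pentose phosphate pathway (8839 and 9231) and the mitochondrial glutaredoxin Glrx5 (6603 and 7379) were the brightest.

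In the list of other peroxidases and partners, 7 of 10 genes exceeded the floor and 0 differed by 1.3-fold, with a median of 0.05. Gpx4, which reduces lipid peroxides, was the brightest, but its probe sets disagreed, at 9105 and 9531 for one and 9161 and 7756 for the other. The copper chaperone Atox1 read 4464 and 4788. Msra, a methionine sulfoxide reductase, had the largest difference among genes above the floor on both arrays, at 659 and 845, a log2 difference of 0.36. Sod3, the extracellular superoxide dismutase, was below the floor on both arrays, at 5.3 and 13.3.

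Of 13 redox regulators and their targets, all above the floor, 1 was higher and 1 lower by 1.3-fold, with a median of -0.07. Nqo1, a quinone reductase, read 300 on GFP and 398 on Satb1, 1.33-fold higher by its only probe set. Foxo1, a forkhead factor, read 265 and 180 by 1 probe set, while another 2 read 119 and 118, and 108 and 117. Park7, a redox-sensitive protein gene, read 11298 and 10363, and Foxo3, a forkhead factor needed for stem cell redox balance, read 3786 and 3481. Another Foxo3 probe set went the other way, at 1500 and 1554, and the last lay below the floor on both arrays. Over the 4 lists, 4 genes were higher and 2 lower by 1.3-fold, beside 4.82% higher and 9.88% lower among all genes above the floor. The total of 6 of 45, or 13.3%, is near the 14.7% over all genes. Of all 1624 genes 1.3-fold apart, 67.2% were lower on the array labelled Satb1. With quantile-normalized values, 815 were higher and 753 lower by 1.3-fold, and the share lower among those was 48.0%.

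**Figure D3:**
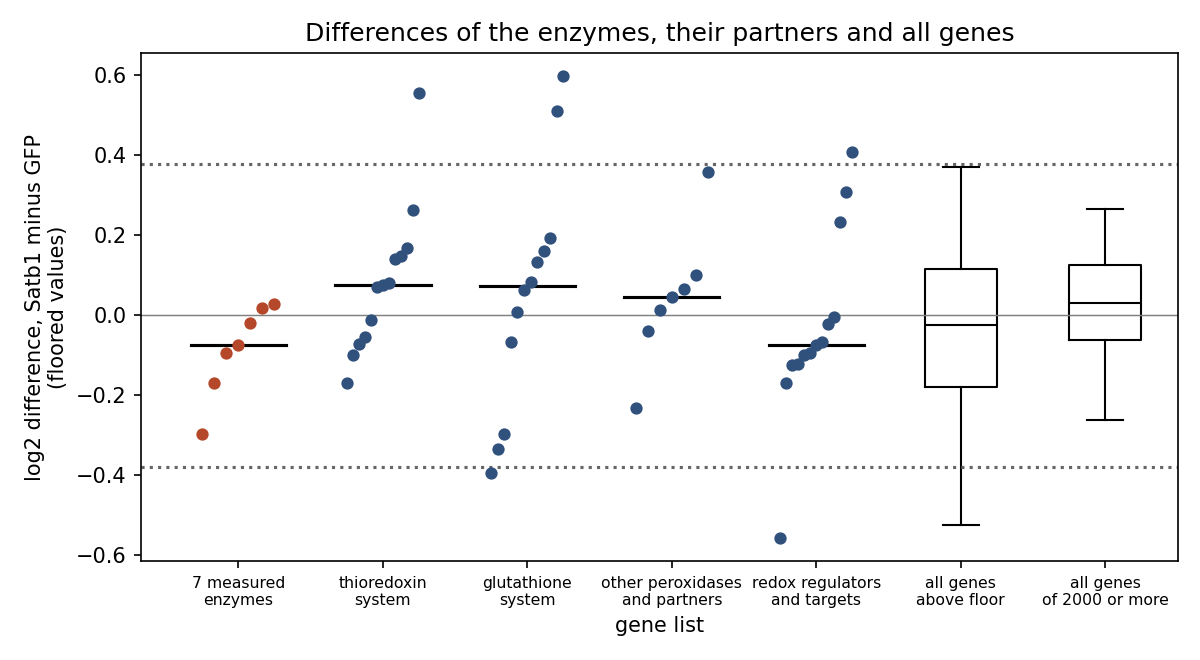
Floored log2 difference (Satb1 minus GFP) of the 7 measured enzymes, of each partner list's genes above the floor (points, 1 per gene, black line at the median), and of all genes (boxes at the quartiles, whiskers at percentiles 5 and 95). Dotted lines mark 1.3-fold. The enzymes lie between -0.30 and 0.03, inside the dotted lines.

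Some markers of blood lineages did differ between the arrays. By 2-fold, 30 of the 11048 genes above the floor were higher on Satb1 and 95 lower, 1.13% in all. Of 7 mast cell, basophil and eosinophil markers, 6 were above the floor, and 3 were lower and 1 higher by 2-fold on the array labelled Satb1. Lower were Mcpt8 (4653 and 1449), Fcer1a (397 and 65.4) and Ms4a2 (1227 and 560), while Prg2 was higher (194 and 825). The summed intensity of the 7 was 16609 on GFP and 10925 on Satb1. Cpa3 (7418 and 5347) and Mcpt8 made up most of both sums. Of 12 measured granulocyte and monocyte markers, 4 were higher and 1 lower, with sums of 61289 and 67618. Members went both ways: S100a8 read 3094 on GFP and 10109 on Satb1, a larger rise than that of the sum. Also 2-fold higher were S100a9 (1578 and 4539), Camp (186.5 and 834) and Ltf (93.2 and 305.5). The gene 2-fold lower was Csf3r (1239 and 494). Ctsg (12716 and 8777) and Mpo (18391 and 16452) were lower on Satb1 by less than 2-fold. Of 10 lymphoid markers, 3 were lower and 1 higher, with sums of 6480 and 2233, and Rag1, Cd79a, Cd3e and Cd2 were below the floor. The cytotoxic granule genes Gzmb (3162 and 875) and Nkg7 (2667 and 754), both 2-fold lower, made up most of both sums. The remaining gene 2-fold lower was Dntt, at 194.8 on GFP and 80.1 on Satb1 by its brightest probe set. Another Dntt probe set read 179.8 and 59.2, with the Satb1 value below the floor, and the last lay below it on both (39.9 and 24.5). Il7r (187 and 156) and Vpreb1 (139 and 153) were within 1.3-fold, and the higher gene, Igll1, was below the floor on GFP (52.6 and 126). Of 9 measured erythroid markers, 0 were 2-fold apart and 6 did not reach the floor on either, the defining genes Hba-a1, Alas2 and Slc4a1 among them. The 3 above the floor were higher on Satb1 by some amount, beside 4994 of all 11048 genes above it. Of the 3, 1 was higher by 1.3-fold, Klf1 (87.1 and 138), in the dimmest range, where the within-gene SD was 0.36. The sums of 9860 and 11573 came mostly from Car2 (9486 and 11142). Of 7 measured megakaryocyte markers, 0 were 2-fold apart, with sums of 26069 and 29852. The 6 above the floor were higher on Satb1 by some amount, as were 4994 of all 11048 genes above it. By 1.3-fold, 2 of the 6 were higher, Ppbp (1752.5 and 3075) and Gp1bb (292 and 488.5), beside 4.82% of all genes above the floor. The second Gp1bb probe set went the other way, at 70.6 and 61.6. The part of these markers in the values of Prdx4, Sod1 and Gclm was not tested. In bulk RNA, fewer cells of a type and less RNA per cell cannot be told apart.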

How the data were processed

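RNA of 1 GFP and 1 Satb1 array was compared. Per the submitters' processing notes, the authors deposited MAS5 intensities, 1 per probe set on a linear scale; the sources used here do not state version, scaling target or genome build, and a depth does not exist for arrays, whose number limits the precision. Of 45037 probe sets, 34945 had 1 gene symbol, 932 several and 9160 none; symbols were updated by Entrez ID through the GRCm38.p6 gene table (34741 matched). Each of 18193 genes was represented by its probe set of highest mean log2 intensity. Intensities were floored at 61.7 before log2 differences of genes were taken, and differences of probe sets are unfloored. Genes were counted at 2-fold and 1.3-fold. Members, gene lists and thresholds were chosen with earlier results of these data known. Named were all members and, per partner list, up to 4 genes at 1.3-fold, otherwise the 2 with the largest difference, and the 2 brightest; Satb1; Sod3 and marker genes were named after their values were seen. Scripts (Python 3.11.15, pandas 2.3.3) were tested on simulated data. Alternatives were other floors, scalings and probe set rules.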

Additional observations from a re-analysis of the deposited data

How the results depend on the processing

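The count of enzymes apart stayed at 0 at 2-fold and at 1.3-fold, in each direction, under all 7 alternatives, with 6 genes measured without probe sets that can match several transcripts, since Prdx2 then has none. The median over the enzymes ran from -0.11 (quantile normalization) to -0.02 (median centring), and median centring moved all differences by 0.05. The partner counts at 1.3-fold are small and moved. In the thioredoxin list the count higher went from 1 to 0 with the mean over probe sets or the floor at the 75th percentile, and to 2 without probe sets matching several transcripts, and the count lower from 0 to 1 with the mean. In the glutathione list the count higher went from 2 to 1 with the mean or the floor at the 75th percentile, and the count lower from 1 to 0 under these, both scalings and without probe sets matching several transcripts. Among other peroxidases the count higher went from 0 to 1 under both scalings and the floor at the 25th percentile and to 2 with no floor, and the count lower to 1 with the lower floor or none. Among regulators the count higher went from 1 to 0 with the floor raised to the 75th percentile and to 2 with quantile normalization or the mean, and the count lower from 1 to 0 with the floor at the 75th percentile or without probe sets matching several transcripts. Sesn2 reversed to -0.27 with the mean over its probe sets, and Ggt5 to 0.083 without probe sets matching several transcripts, since their probe sets disagree. No paired analysis was possible because each group has 1 array. For the same reason no array could be left out.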
